A study of Mus musculus with 11 samples.

Results

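Cytosolic ribosomal protein genes encode the protein part of the ribosome that translates nuclear mRNAs, and they were described here across imiquimod-treated back skin of mice lacking Trex2 and of wild-type mice. Members were the rows of the gene table named Rpsa, Rplp0, Rplp1 or Rplp2, or Rpl or Rps with a number and at most a short paralogue ending, without pseudogene rows (-ps) and without the S6 kinases. The rule used names and no measured value. It found 81 of 38406 rows, 50 of the large subunit and 31 of the small subunit. Rps3a1, Rpl22l1 and Fau, which also encode ribosomal proteins, fell outside the rule by name and were counted with the other translation genes.

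Libraries came from 6 Trex2-/- mice (KO, replicates 7 to 12) and 5 wild-type mice (WT, replicates 2 to 6), all female, C57BL/6 and 8 to 10 weeks old. Every mouse, controls included, had received 125 mg of cream with 5% imiquimod, a TLR7 agonist that produces psoriasis-like inflammation, on the shaved back on each of 4 days, and skin was taken 24 hours after the last dose. Trex2 encodes a 3′-to-5′ DNA exonuclease of keratinocytes, and the labels describe its loss in the whole animal. Skin without imiquimod was not analysed here. mRNA was selected from total RNA of whole pulverized skin, so each value is a mean over all cells of the sample, and fewer cells of a type cannot be told apart from less RNA per cell.

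The libraries held 3125366 to 15557862 counted reads in KO and 1208896 to 5853454 in WT, and depth differed between the genotypes (exact permutation test of log10 depth, two-sided, p = 0.0303). Trex2 stood at 0.794 to 3.47 normalized counts in the KO libraries and at 1125 to 2196 in the WT libraries, as the labels have it. Markers of keratinocytes, fibroblasts and skeletal muscle, of which mouse skin has a thin layer, were found in every library, and no marker was at 0 in all of them. Keratinocyte and neutrophil markers had fold changes of opposite sign, while single libraries of the genotypes overlapped. All 12 suprabasal and terminal keratinocyte markers had a positive log2 fold change (median 1.72) and all 9 neutrophil markers a negative one (median −1.12), none past the adjusted threshold. Their summed level spanned 21787 to 64453 normalized counts in KO and 15732 to 35060.4 in WT for terminal keratinocyte markers, and 16992 to 84304 in KO and 47580.4 to 113463 in WT for neutrophil markers.

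Each ribosome carries a single copy of nearly every ribosomal protein, and the proteins are made in matched amounts with the ribosomal RNA. The mRNAs of vertebrate ribosomal proteins begin at a C followed by a run of pyrimidines, the 5′ terminal oligopyrimidine or TOP motif, through which the kinase mTORC1 and the mRNA-binding protein LARP1 set their translation together. Proliferating epidermis, as in psoriasis-like skin, has a high demand for ribosomes. Free ribosomal proteins, above all Rpl5 and Rpl11 bound to 5S ribosomal RNA, can bind Mdm2 and so stabilize p53.

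The start of the transcript is shown for a choice of members, most of them named in the results below, to let the motif be seen in members with different genotype values. Each line holds 10 bases before and 20 bases from the RefSeq transcript start on GRCm38.p6, read 5′ to 3′ on the strand of the transcript. Capitals mark a run of at least 5 C or T that opens with C exactly at the annotated start, searched on the transcript strand only. Such a run is more frequent among the members shown than among all members with a matched start (below).
Rps6: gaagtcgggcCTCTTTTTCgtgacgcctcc
Rpl15: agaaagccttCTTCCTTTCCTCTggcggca
Rpl38: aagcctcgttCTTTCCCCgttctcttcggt
Rps21: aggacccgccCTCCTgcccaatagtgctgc
Rplp2: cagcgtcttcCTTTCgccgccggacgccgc
Rpl4: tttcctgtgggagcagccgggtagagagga
Rpl41: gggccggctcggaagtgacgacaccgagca
Rpl3l: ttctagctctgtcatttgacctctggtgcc
Rps6 lies at chr4:86857348-86857377 on the minus strand, Rpl15 at chr14:18270967-18270996 on the minus strand, Rpl38 at chr11:114668570-114668599 on the plus strand and Rps21 at chr2:180257369-180257398 on the plus strand. Rplp2 lies at chr7:141447641-141447670 and Rpl4 at chr9:64173377-64173406, both on the plus strand. Rpl41 lies at chr10:128549149-128549178 on the minus strand, and Rpl3l at chr17:24727816-24727845 on the plus strand. RefSeq gives a further start for Rps21 and Rpl3l, which is not shown.

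A start was matched by symbol for 61 of the 81 members. The run stood exactly at the annotated start in 13 of the 61 members (21.3%), against 3.01% of all 27025 symbols with a start. A start annotated a few bases away from the used one hides the motif, so the other 48 are not thereby without it. The 13 members with the run had a median log2 fold change of −0.28 between the genotypes, and the 47 tested members without it had −0.16. Coding length, which the fold changes follow (below), was not matched between these groups. The part of the run in the difference was not tested. Of the 13 with the run 12 had a negative value, Rps21 lowest among those shown at −0.43, and Rpl15 alone had a positive one at 0.031.

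The first measure was the share of the library that ribosomal protein mRNA takes, which needs no size factor. The 81 members took 5.01%, 4.17%, 5.33%, 3.52%, 3.29% and 3.54% of all counted reads in KO replicates 7 to 12, against 5.42%, 4.01%, 3.74%, 4.29% and 4.98% in WT replicates 2 to 6. The groups overlapped over most of their range, and the highest library held 1.65 times the share of the lowest. The mean share was 4.14 ± 0.853% in KO and 4.49 ± 0.698% in WT (SD, n = 6 and 5). Counting error was small beside this, with 95% Wilson intervals of at most 0.035 percentage points to either side.

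Large subunit members took 2.51 ± 0.501% of reads in KO and 2.68 ± 0.405% in WT, and small subunit members 1.63 ± 0.352% in KO and 1.81 ± 0.294% in WT (SD, n = 6 and 5). Small subunit reads came to 0.664, 0.660, 0.654, 0.635, 0.644 and 0.630 per large subunit read in KO replicates 7 to 12, against 0.683, 0.694, 0.650, 0.665 and 0.678 in WT replicates 2 to 6. The ratio therefore varied far less between libraries than the share itself. Its mean was 0.648 ± 0.0139 in KO and 0.674 ± 0.0171 in WT (SD, n = 6 and 5). The groups overlapped through WT replicate 4 alone, and WT replicate 5 (0.6645) lay barely above the highest KO library, replicate 7 (0.6642). The 3 KO libraries of greatest depth, replicates 10, 11 and 12, had the 3 lowest ratios and the 3 lowest shares of all 11.

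**Figure D1:**
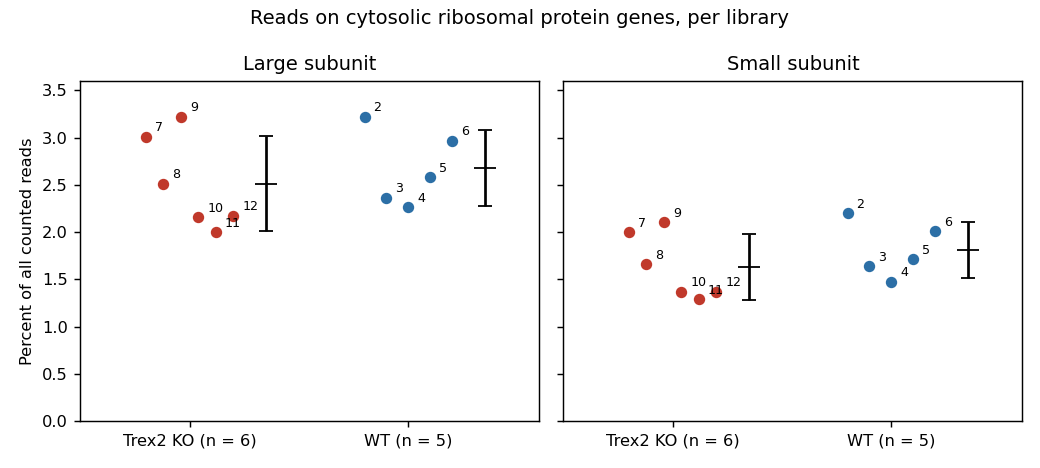
Percent of all counted reads on large subunit (left) and small subunit (right) ribosomal protein genes, 1 point per library with its replicate number, Trex2 KO left of WT; bars give mean ± SD. Large subunit shares run from 2.00% to 3.22% in KO and from 2.27% to 3.22% in WT, so the genotypes overlap, and KO replicates 10, 11 and 12 lie lowest in both panels.

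Levels were next compared gene by gene with limma on log2(normalized count + 1), adjusted over all 13215 genes with a mean of at least 10. Rpl10l was not tested, and the other 80 members passed this filter with means of at least 86.5 normalized counts in all libraries together. No member of either subunit passed the adjusted p threshold of 0.05, where 0.0151% of all tested genes did. At an unadjusted p under 0.05 there was also no member, against 24.4% of all genes. Neither edgeR nor DESeq2 on recovered reads called a member, against 0.0303% and 4.28% of all genes, and both gave 0 members at an unadjusted p under 0.05. No member had all KO libraries on 1 side of all WT libraries, which 2.32% of all genes had. The standard error of a member's log2 fold change was 0.14 to 0.36 (median 0.20). A difference of that size was not detectable at this replication, and larger ones could be missed as well. Eif4e3, a gene outside the rule, was not called at −0.65 (SE 0.15, limma adjusted p = 0.108). The lack of a call therefore does not exclude member differences above these standard errors.

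The fold changes nevertheless leaned to 1 side. A log2 fold change below 0 was found for 72 of 80 members, against 49% of all tested genes. This held for 42 of 49 large subunit members (median −0.14) and 30 of 31 small subunit members (median −0.19), beside a median of 0.0081 over all genes. Members vary together from library to library, so these counts are not independent observations. The mean centred log2 level of 869 tested genes outside the rule with an mRNA under 1000 bases also averaged lower in KO. Its KO mean minus its WT mean was −0.22, beside −0.18 for the members, and libraries of the genotypes overlapped in both. The lean is therefore not particular to the members. Whether they differ from other genes of their length was not tested. The subunit medians were negative under every scaling run and positive with log10 depth as a covariate (0.049 for the large and 0.028 for the small subunit) or with the transcript length score of the library, defined with the pattern across libraries, as a covariate (0.15 and 0.12). Without KO replicate 9 the medians were −0.22 and −0.28, and without WT replicate 2 they were −0.041 and −0.11 for the large and small subunit.

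The 3 small subunit genes of lowest fold change were Rps21, Rps14 and Rps29. Rps21, a protein of the small subunit that takes part in processing of its ribosomal RNA, had 2019.7, 1639, 2358, 1200.5, 1123 and 1259 normalized counts in KO, against 2893, 2071, 1506, 1848 and 2330.1 in WT. The groups overlapped, with KO replicates 10, 11 and 12 below every WT library and WT replicate 2 above every KO library. The log2 difference came to −0.43 (SE 0.22, limma adjusted p = 0.233), the smallest p of all members (unadjusted p = 0.0661). Rps14, a protein of the platform of the small subunit whose loss is linked in humans to the anaemia of the 5q deletion, had 8623, 6749, 7743, 4539, 5117 and 4198 normalized counts in KO, against 10986, 6940.4, 5717, 7459 and 9778 in WT (log2 fold change −0.42, SE 0.23). Rps29, a small zinc-binding protein of the small subunit head, averaged 2279.7 ± 717 normalized counts in KO and 2959 ± 779 in WT (SD, n = 6 and 5), a log2 fold change of −0.40 (SE 0.22).

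At the other end of the small subunit stood Rps2, Rps16 and Rps4x. Rps2, a protein at the mRNA entry channel, had 7039, 4606, 7407, 4552, 3939 and 4686 normalized counts in KO, against 7145, 4629.9, 4191, 4686 and 5685 in WT. It was the one small subunit member with a positive value, 0.013 (SE 0.20), and it turned to −0.088 without KO replicate 9. Rps16, a protein whose tail reaches the P site, stood at −0.061 (SE 0.18), and at 0.033 under upper quartile scaling. Rps4x, the X-linked form of Rps4, stood at −0.083 (SE 0.14), at 0.012 under upper quartile scaling and at 0.014 under quantile normalization.

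In the large subunit Rpl39l and Rpl39 were among the lowest values. Rpl39, a very short protein that lines the exit tunnel of the nascent chain, had 3094, 2372, 3681, 1798, 1679 and 2069 normalized counts in KO, against 4355, 3019, 2634, 2609.6 and 3287 in WT. KO replicates 8, 10, 11 and 12 lay below every WT library and KO replicates 7 and 9 lay within the WT range. The log2 fold change came to −0.41 (SE 0.21), with a limma adjusted p of 0.25. Rpl39l, its paralogue known from male germ cells, had 92.0, 105, 42.1, 70.2, 76.1 and 34.7 normalized counts in KO, against 136, 81.2, 41.1, 103 and 171 in WT, a log2 fold change of −0.55 with the largest standard error of all members (0.36).

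The highest values belonged to long large subunit proteins. Rpl7a had 3300.2, 2905, 4009, 2669.6, 2387 and 3007 normalized counts in KO, against 3194, 2243, 2555, 2688 and 3384 in WT, a log2 fold change of 0.11 (SE 0.16). Rpl4, whose long loop also lines the exit tunnel, averaged 8898 ± 1271 normalized counts in KO and 8229.7 ± 1101 in WT (SD, n = 6 and 5), a log2 fold change of 0.11 (SE 0.15). Rpl6 stood at 0.077 (SE 0.14). For these 3 genes the KO and WT libraries lay across each other, and the limma adjusted p was 0.668 or more.

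The stalk of the large subunit recruits elongation factors and holds Rplp0 with pairs of Rplp1 and Rplp2. By normalized counts per kilobase of mRNA, Rplp2 ranked 3, Rplp0 ranked 4 and Rplp1 ranked 14 among the members. Rplp0 had 12607, 11005, 12278, 8791, 8109 and 8749 normalized counts in KO, against 12079, 9490.0, 8913, 10668 and 13935 in WT, a log2 fold change of −0.11 (SE 0.18). Rplp2 had 4534, 3176, 4947, 2621, 2392 and 2552 normalized counts in KO, against 6284, 4088, 2981, 3575 and 4342 in WT, a log2 fold change of −0.35 (SE 0.23). Rplp1 stood at −0.30 (SE 0.22). WT replicate 2 held the highest level of Rplp1 and Rplp2, whereas WT replicate 6 held the highest level of Rplp0.

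The other members named for their roles lay between these. Rpl5 and Rpl11, the Mdm2-binding pair, stood at −0.13 (SE 0.18) and −0.11 (SE 0.20). Rps6, the substrate of the S6 kinases, averaged 3716 ± 715 normalized counts in KO and 3919.8 ± 586 in WT (SD, n = 6 and 5), a log2 fold change of −0.087 (SE 0.16), which was 0.0081 under upper quartile scaling and 0.039 under quantile normalization. Rps27a, made as a fusion with ubiquitin, stood at −0.19 (SE 0.20), and Rpsa, also known as the laminin receptor, at −0.25 (SE 0.22). Rps3, at the mRNA entry site, stood at −0.16 (SE 0.18), and Rps19, the gene most often mutated in human Diamond-Blackfan anaemia, at −0.22 (SE 0.18). Rpl10, which joins the large subunit in a late step of its maturation, averaged 2101 ± 441 normalized counts in KO and 2281 ± 262 in WT (SD, n = 6 and 5), a log2 fold change of −0.14 (SE 0.15).

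Across the 80 members the fold change followed the length of the coding sequence, a property that the rule did not use. All 28 members with a coding length under 400 bases had a negative log2 fold change (median −0.27), while 5 of the 14 members over 700 bases had a positive one (median −0.096). The Spearman correlation over members was 0.55 with coding length, 0.40 with the length of the principal mRNA and 0.028 with the mean level. These are descriptions across genes that share the same libraries, and they carry no p-value. Rps14 at 453 bases was low for its length, and Rpl3l at 1221 bases stood at −0.22, below its neighbours in length.

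**Figure D2:**
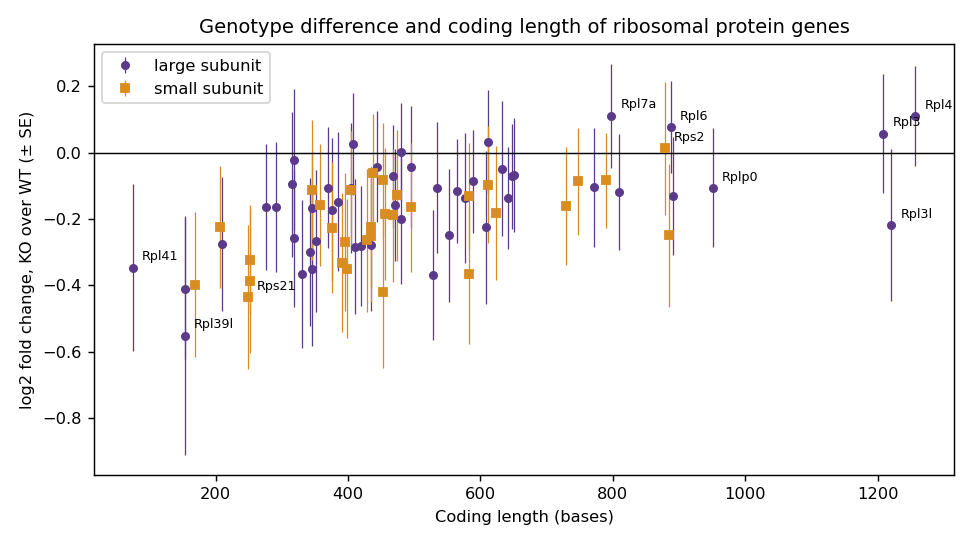
Log2 fold change, KO over WT, of each of 80 tested members (vertical axis, bars ± SE) against its coding length in bases (horizontal axis), with large subunit genes as circles and small subunit genes as squares. Values below 400 bases all lie under 0 and those of Rpl4, Rpl3 and Rpl7a at the long end lie above it, as fitted on the deposited normalization; 73 of the 80 values are positive with the transcript length score as a covariate and 52 with log10 depth.

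The members moved as a block within each genotype. After each gene was centred within its group, the median Pearson correlation over 3160 pairs of members was 0.93 across the 11 libraries, and 78 of 80 members had a correlation over 0.8 with the mean of the other members. Of the tested genes outside the rule, 6.07% passed 0.8 with the mean of the members. Both exceptions were the tissue-restricted paralogues Rpl3l (0.46) and Rpl39l (0.34). Among the other 78 members the lowest pair stood at 0.60. The closest to the block were Rps13, Rps19, Rps15 and Rpl41, each at 0.99.

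KO replicate 11 was the lowest library for 61 of the 80 members, KO replicate 9 was the highest for 19, and WT replicate 2 was the highest for 55. The mean level of the members, each centred on its mean over all libraries on the log2 scale, was 0.25, −0.060, 0.38, −0.36, −0.43 and −0.27 in KO replicates 7 to 12, against 0.52, −0.058, −0.23, 0.0030 and 0.25 in WT replicates 2 to 6. The 3 lowest libraries were all KO and the highest was WT. KO replicate 9 lay above 4 of the 5 WT libraries and KO replicate 7 above 3 of them. A member differed by a median factor of 2.00 between its highest and its lowest library and by a factor of at least 1.52.

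**Figure D3:**
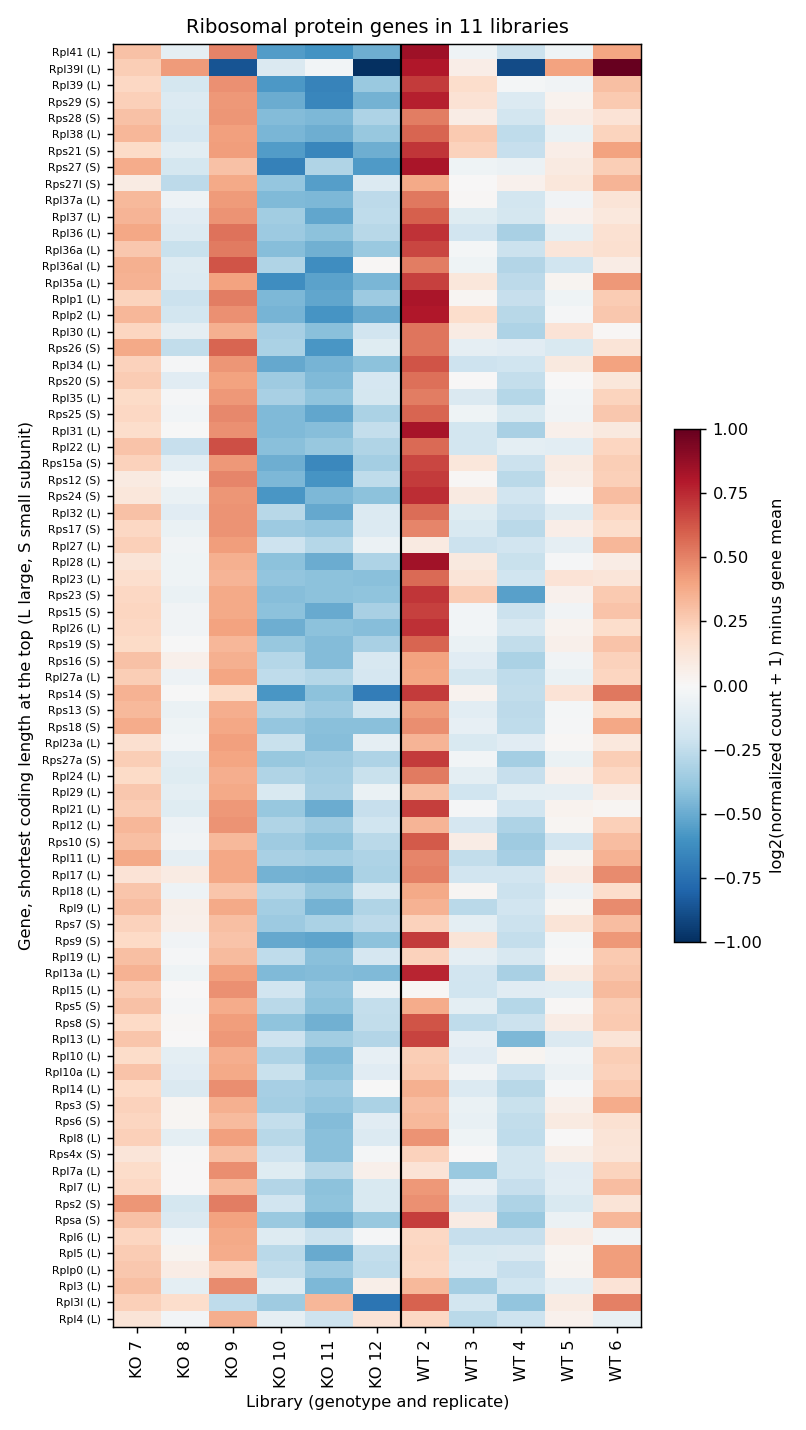
Level of 78 of the 80 tested members (rows, shortest coding length at the top) in 11 libraries (columns, KO left of the line, WT right), as log2(normalized count + 1) minus the gene's mean, with colours ending at −1 and 1. Whole columns share 1 colour, blue in KO replicates 10, 11 and 12 and red in KO replicate 9 and WT replicate 2, and Rpl39l and Rpl3l break the pattern.

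The level of the members moved with the length of transcripts in general. A transcript length score was taken for each library as the mean centred log2 level of 869 tested genes outside the rule with an mRNA under 1000 bases minus that of 2060 such genes over 5000 bases. It was 0.30, 0.042, 0.28, −0.59, −0.51 and −0.65 in KO replicates 7 to 12, against 0.68, 0.15, −0.15, 0.034 and 0.42 in WT replicates 2 to 6. KO replicates 10, 11 and 12 were lowest in both the score and the member level, and WT replicate 2 was highest in both. Those 3 KO libraries were also the 3 deepest libraries. Members with a coding length under 400 bases spanned −0.49 to 0.41 in KO and −0.22 to 0.65 in WT, and those over 700 bases −0.33 to 0.33 in KO and −0.24 to 0.34 in WT. With the score as a covariate, chosen after the data were seen, 73 of 80 members had a positive log2 fold change, none was called by limma, and 4 had an unadjusted p under 0.05, as had 2102 of all 13215 genes. The part of transcript length, depth and RNA quality in the genotype values was not tested, and depth cannot be fully told apart from genotype in these libraries.

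**Figure D4:**
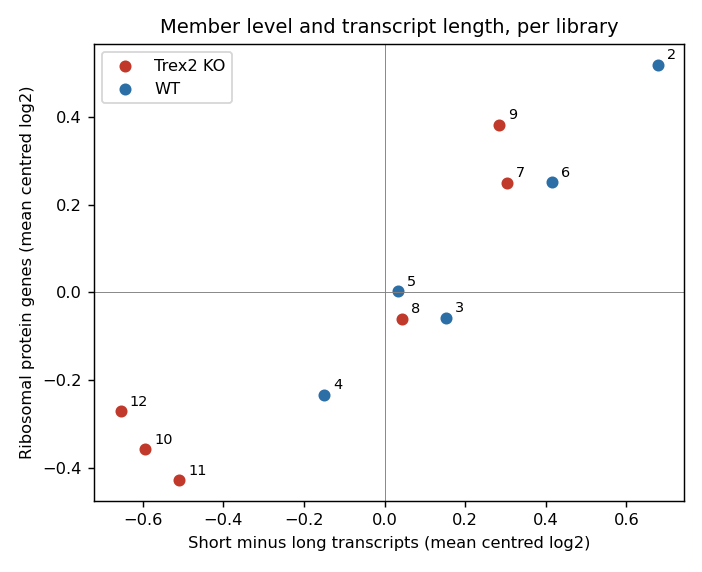
Mean centred log2 level of 80 ribosomal protein genes (vertical axis) against the mean centred log2 level of short minus long transcripts outside the rule (horizontal axis), 1 point per library with its replicate number. KO replicates 10, 11 and 12 lie lowest on both axes and WT replicate 2 highest, and KO replicates 7, 8 and 9 lie among the WT libraries.

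Genes outside the rule were ranked by their correlation with the member mean within genotypes over the 11 libraries, as a description. Gm9846, a row with no gene name of its own, came first at 0.997, followed by Cops6 (0.99), a subunit of the COP9 signalosome, Sec61b (0.99), of the translocon of the endoplasmic reticulum, and Uqcrq (0.99), of respiratory complex III. Cfdp1, Cox6b1, Kxd1, Ndufv2 and Cox7a2 were also among the first 10, which ran down to 0.98. The 10 most opposed ran from Wdfy3 (−0.96) to Rock2 (−0.98), and held Rnf213, Ccdc88a, Cyfip1 and Diap2. The 100 most similar genes had a median mRNA length of 893 bases, the 100 most opposed 6368.5 bases and all genes outside the rule 2798 bases.

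Order of mRNA abundance among the members was set by level per kilobase of principal mRNA, averaged over all 11 libraries. Rpl41, whose protein is the shortest of the ribosome, led with 24641 normalized counts per kb, and it had 12574, 9631, 14458, 6966, 6797 and 7309 normalized counts in KO, against 18432, 9941, 8863, 9972 and 13503 in WT (log2 fold change −0.35, SE 0.25). Rps14 followed with 11855 per kb, Rplp2 with 8960 and Rplp0 with 7807. Rps15 was also among the highest with 7167 per kb, and its log2 fold change was −0.25 (SE 0.20). The median member of the large subunit had 2890.2 per kb and that of the small subunit 3871. Compared within each library, Rpl41 lay above Rps14 and Rps14 above Rplp2 in all 11, while Rplp2 lay above Rplp0 in 7. Of the 79 neighbouring pairs in this order, 5 kept the same order in every library and 74 did not. The order also depends on the length used. With the union of exons in place of the principal mRNA the Spearman correlation of the orders was 0.73, Rpl41 stayed first, Rps14 moved to rank 13 and Rplp2 to rank 30.

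Paralogue pairs showed which alternative members skin holds. Rpl3l, the striated muscle form of Rpl3, had 206, 197, 146, 136, 220.2 and 105 normalized counts in KO, against 263, 153, 132, 185 and 248 in WT. Per kilobase it made up 4.28 ± 1.77% of the sum of Rpl3l and Rpl3 in KO and 4.85 ± 0.653% in WT (SD, n = 6 and 5). The groups overlapped, and the KO libraries held both the highest share, 7.28% in replicate 11, and the lowest, 2.56% in replicate 12. Rpl3 itself stood at 0.057 (SE 0.18).

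Rpl3l was next set against the amount of skeletal muscle RNA. Over the 11 libraries it correlated with the mean centred level of 8 skeletal muscle markers at Pearson r = 0.80 (permutation p = 0.00223, adjusted over 4 p-values 0.00446) and Spearman rho = 0.86 (permutation p = 0.00108, adjusted 0.00432). Without KO replicates 12 and 9, which lie farthest from the median of the markers, r was 0.76 (n = 9). Within the 6 KO libraries r was 0.82 (permutation p = 0.0474, adjusted 0.0474) and rho 0.94 (permutation p = 0.0169, adjusted 0.0226), and no value was taken within the 5 WT libraries, fewer than the 6 set as the least for a correlation. The markers were Acta1, Ckm, Myh1, Myh2, Myh4, Tnnt3, Mylpf and Atp2a1. Acta1, skeletal muscle actin, averaged 23328 normalized counts in KO and 24840.1 in WT, so muscle RNA was present in skin of both genotypes.

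**Figure D5:**
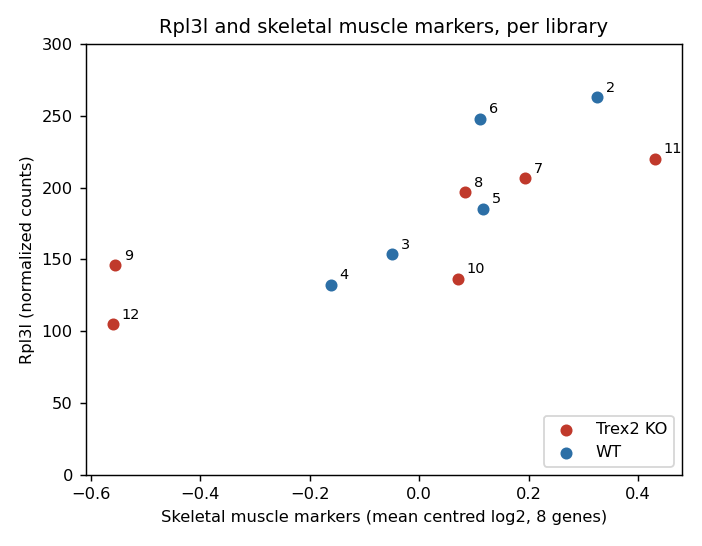
Normalized counts of Rpl3l (vertical axis, from 0) against the mean centred log2 level of 8 skeletal muscle markers (horizontal axis), 1 point per library with its replicate number, KO and WT in separate colours. Rpl3l lies at 105 and 146 in KO replicates 12 and 9, where muscle markers are lowest, and at 197 or more in KO replicates 7, 8 and 11. KO replicate 10 goes against this, with Rpl3l at 136 at a marker level of 0.070, beside 197 at 0.084 in KO replicate 8.

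Rpl39l made up 3.32 ± 1.50% of its pair with Rpl39 per kilobase in KO and 3.53 ± 1.41% in WT. Rps27l, a paralogue of Rps27 that p53 induces, had 224, 176, 275, 162, 144 and 192 normalized counts in KO, against 276, 212, 218, 229 and 268 in WT, and made up 24.0 ± 3.72% of its pair in KO and 23.1 ± 2.65% in WT (SD, n = 6 and 5). The log2 fold change came to −0.32 (SE 0.16), with a limma adjusted p of 0.24, beside −0.39 (SE 0.22) for Rps27, for which WT replicate 2 stood apart from the other WT libraries. Rpl36al made up 37.9 ± 2.72% of its pair with Rpl36a in KO and 34.1 ± 1.77% in WT, with 5 of the 6 KO libraries above every WT library and KO replicate 11 within the WT range. The log2 fold change was −0.021 (SE 0.21) for Rpl36al, a sign that turned under TMM, upper quartile and CPM scaling, and −0.26 (SE 0.21) for Rpl36a. Rpl10l, the male germ cell form of Rpl10, had 0 reads in every library. The limit of 3 reads corresponds to 1.04 to 5.21 normalized counts in KO libraries and 2.72 to 13.5 in WT libraries, so Rpl10l was not detectable at this depth.

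Ribosomal protein genes have many processed pseudogenes, and near-identical copies can share reads, so the level of a member with such rows is uncertain. The table held 222 pseudogene rows named with -ps, and 53 members have at least 1 of them. Pseudogenes under other names were not counted, so the other members may have copies too. The -ps rows held 0.00777 ± 0.00209% of reads in KO and 0.00916 ± 0.00168% in WT (SD, n = 6 and 5), far below the members. The treatment of multiply mapped reads is not given in the sources used here. Rpl19-ps11, the most abundant of the 3 that were tested, stood at −0.53 (SE 0.30).

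Other genes of ribosome production and translation differed in direction from list to list. Of 51 tested ribosome biogenesis factors, 48 had a positive log2 fold change (median 0.28), beside 0.0081 over all genes. None was called by limma, and 18 of the 51 had an unadjusted p under 0.05, all positive, against 24.4% of all genes in either direction. Mybbp1a, a nucleolar protein of ribosomal RNA synthesis, had 1039, 913, 1063, 1269, 1049.8 and 1359.8 normalized counts in KO, against 729.5, 772, 805, 934 and 788 in WT. All KO libraries but replicate 8 lay above every WT library. The log2 fold change came to 0.46 (SE 0.12), with a limma adjusted p of 0.108. Rrs1, needed for assembly of the large subunit, stood at 0.58 (SE 0.16, limma adjusted p = 0.108), and Nol6, of the early small subunit precursor, at 0.57 (SE 0.18, limma adjusted p = 0.112). The level of this list was highest in KO replicates 9 and 12 (0.32 and 0.27) and lowest in WT replicate 3 (−0.36). Terminal keratinocyte markers stood at 2.02 and 2.03 in those KO libraries and at −1.70 in that WT library. WT replicates 4 and 5 went the other way. The markers stood at 1.22 and −2.11 there, while the list stood at −0.16 and 0.0072. Without KO replicates 9 and 12 the median of the list was 0.17, and under upper quartile scaling 0.37. The part of keratinocyte content was not tested.

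RNA polymerase I genes were mixed, with 11 of 16 positive (median 0.23). An unadjusted p under 0.05 was found for 18.75% of them, below the 24.4% of all tested genes. Polr1b, the second largest subunit of the polymerase, stood at 0.56 (SE 0.18, limma adjusted p = 0.116). Rrn3, its initiation factor, stood at 0.32 (SE 0.13), while Znrd1, a small subunit of the polymerase, stood at −0.50 (SE 0.20). All 20 cytosolic aminoacyl-tRNA synthetases, which charge tRNAs, had a positive value (median 0.21), and 7 (35%) had an unadjusted p under 0.05, against 24.4% of all tested genes in either direction. Yars stood at 0.34 (SE 0.13), Hars at 0.37 (SE 0.15) and Iars at 0.34 (SE 0.14), each with a limma adjusted p of 0.142 or more. Without KO replicates 9 and 12 the median of the synthetases was 0.14.

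Translation initiation factors, with 36 of 52 positive (median 0.10), held 4 genes higher and 3 lower at an unadjusted p under 0.05. This share of 13.5% is below the 24.4% of all tested genes. The list was taken by symbol, so the 3 lower genes include Eif4ebp1, a repressor that the mTORC1 list below holds as well. Eif4e3, a cap-binding protein of the eIF4E family, averaged 186 ± 27.4 normalized counts in KO and 295 ± 61.8 in WT (SD, n = 6 and 5), a log2 fold change of −0.65 (SE 0.15, limma adjusted p = 0.108). Eif1b stood at −0.50 (SE 0.16, limma adjusted p = 0.116). Of 23 mTORC1 pathway genes 14 were positive (median 0.10), and 13.0% had an unadjusted p under 0.05, also below that of all genes. Eif4ebp1, the repressor of eIF4E that mTORC1 inactivates, stood at −0.47 (SE 0.17, limma adjusted p = 0.133), Eif4g1, the scaffold of cap-dependent initiation, at 0.43 (SE 0.15) and Mtor, the kinase itself, at 0.33 (SE 0.15).

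The next list held other TOP mRNAs. Of 29 tested TOP mRNAs outside the rule, 18 had a negative log2 fold change (median −0.038, which was 0.057 under upper quartile scaling), and their median correlation with the member mean within genotypes was 0.86. Eif4b had the smallest p of the list, with a log2 fold change of 0.26 (SE 0.12, limma adjusted p = 0.188) and a correlation of −0.65 with the members. An unadjusted p under 0.05 was found for 3.45% of the list, against 24.4% of all tested genes. Among the ribosomal proteins that the rule left out by name, Fau stood at −0.32 (SE 0.20), Rps3a1 at −0.038 (SE 0.15) and Rpl22l1 at 0.098 (SE 0.18), and their correlations with the members were 0.96, 0.93 and 0.91. These 3 were named after their values were seen.

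Mitochondrial ribosomal proteins, which build the separate ribosome of mitochondria, had a negative log2 fold change in 50 of 76 (median −0.099), with a median correlation of 0.82 with the members. Mrpl33 stood at −0.40 (SE 0.17) and Mrps6 at −0.40 (SE 0.18), the 2 with an unadjusted p under 0.05 (2.63% of the list, against 24.4% of all tested genes). Of 12 p53 targets linked to free ribosomal proteins 7 were negative (median −0.12). An unadjusted p under 0.05 was found for 16.7% of this list, also below the 24.4% of all tested genes. Bax, of the mitochondrial death pathway, averaged 302 ± 76.0 normalized counts in KO and 465 ± 110.3 in WT (SD, n = 6 and 5), a log2 fold change of −0.62 (SE 0.21, limma adjusted p = 0.123). Phlda3, a repressor of Akt, stood at 0.46 (SE 0.19), and Cdkn1a, the cell cycle inhibitor p21, at −0.29 (SE 0.19). None of the genes in these lists was called by limma, where 0.0151% of all genes were.

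Leaving out WT replicate 4 made limma call 5.6% of all genes and still 0 members, whose lowest adjusted p was then 0.0998. In that fit 6 members had an unadjusted p under 0.05, as had 3894 of all 13215 genes, and 75 of 80 log2 fold changes were negative.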

How the data were processed

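mRNA of imiquimod-treated back skin was sequenced for 6 KO and 5 WT mice, per the labels. The deposited table gives, per library, a normalized signal, each gene's count divided by 1 size factor, for 38406 gene symbols. The submitters' processing notes name the build GRCm38 and the tools featureCounts 1.4.6, TopHat2 2.0.8 and DESeq2 1.8.1. Which annotation, strand setting and rule for multiply mapped reads were used is not given in the sources used here. Reads of overlapping or antisense genes therefore cannot be told apart. Dividing each library by the worth of a single read gave whole reads for 100% of values (within 0.01).

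Genes with a mean of at least 10 normalized counts were tested with limma 3.58.1 in R 4.3.3 (moderated variances with a trend) on log2(value + 1), which understates changes of low genes. The Benjamini-Hochberg adjusted threshold was 0.05 over 13215 genes. The recovered reads were also fitted with DESeq2 1.42.0 and edgeR 4.0.16, using the authors' size factors. Only the limma fit was tested on simulated data. The simulated noise was independent between genes, so that test does not cover variation that genes share within a library. The labels do not say whether the mice shared litters or batches. Depth was 3125366 to 15557862 reads in KO and 1208896 to 5853454 in WT. Wilson intervals and the limit of 3 reads cover counting error only, since no molecular identifiers are described.

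Lengths came from GENCODE M21 (shortest APPRIS principal transcript), and 92.3% of tested genes had one. Members and gene lists were chosen with earlier results of these data known. Named members were, by rule, the 3 highest and 3 lowest fold changes and the 3 highest levels per kb in each subunit, 10 genes of known role and the paralogue pairs; some of these are not reported here. Lists contributed their 3 genes of smallest p, and no list was tested as a set.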

Additional observations from a re-analysis of the deposited data

Results flagged for a closer look

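Rps27 stood apart in 1 library. WT replicate 2 had 844 normalized counts of Rps27, while the other 4 WT libraries had 459 to 566, a gap wide enough to mark it as an outlier within its group. The gap came to 0.721 of the range of the group, close to the critical value of 0.71. It was the only one of 68 groups of libraries examined that was marked. Chance marks about 1 in 20, so a single mark is no more than chance gives. WT replicate 2 was also the highest library for 55 of the 80 members.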

How the results depend on the processing

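The count of members called was 0 under every alternative run (other pseudocounts, filters, scalings, tools, covariates, thinned reads and left-out libraries). No paired analysis was possible because the replicate numbers of KO (7 to 12) and WT (2 to 6) are not shared. Upper quartile scaling moved the median of all genes to 0.10 and the large and small subunit medians to −0.042 and −0.095. Leaving out 1 library moved the large subunit median between −0.22 (KO replicate 9) and −0.041 (WT replicate 2), with −0.055, −0.081 and −0.087 without KO replicate 11, KO replicate 10 and WT replicate 6, and the small subunit median between −0.30 (WT replicate 4) and −0.11 (WT replicate 2), with −0.28 without KO replicate 9.

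Signs of uncalled members turned as follows, with log2 fold changes. Rpl36al was 0.014 with TMM, 0.027 with CPM, 0.0082 in edgeR and 0.0085 in DESeq2. Under upper quartile scaling Rps4x was 0.012, Rps16 0.033, Rps6 0.0081 and Rpl36al 0.074. Under quantile normalization Rplp0 was 0.033, Rps4x 0.014, Rps16 0.021 and Rps6 0.039. With log10 depth as a covariate Rplp0 was 0.053, Rplp2 0.023, Rps4x 0.022, Rps16 0.13, Rpsa 0.061, Rps6 0.048, Rps27a 0.054, Rpl5 0.021, Rpl11 0.089, Rps3 0.032 and Rpl36al 0.22. With the transcript length score, added after the data were seen, Rplp0 was 0.14, Rplp2 0.070, Rpl41 0.10, Rps4x 0.094, Rps16 0.23, Rps15 0.0999, Rplp1 0.088, Rpsa 0.13, Rps6 0.15, Rps27a 0.16, Rpl5 0.14, Rpl11 0.23, Rps3 0.12, Rps19 0.095, Rpl3l 0.049, Rpl10 0.067, Rpl36a 0.096, Rpl36al 0.31 and Rps27 0.0017. Rpl3 was −0.0040 in thinned reads and −0.063 without KO replicates 9 and 12, where Rps2 was −0.074.

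With 1 library left out, Rps16 ranged from −0.15 to 0.031, Rps2 from −0.088 to 0.13, Rpl11 from −0.20 to 0.0014, Rpl3 from −0.032 to 0.15 and Rpl36al from −0.15 to 0.10. The mTORC1 median, 0.10 as reported, was 0.20 under upper quartile scaling, 0.017 with depth, 0.039 with the length score and 0.039 without KO replicates 9 and 12. The cause was not tested in any of these. At 5 and 6 libraries a group, standard errors of 0.14 to 0.36 limit what can be seen, and library depth, which differs between genotypes, limits how far a covariate can separate them.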
